A study of Mus musculus with 25 samples.

Results

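Genes enriched in microglia, Tmem119, Gpr34, Olfml3, Slc2a5, Bin1, Slc1a3, Adgrg1, Mlph, Naalad2 and Csmd3, were followed across sorted macrophages of mouse glioblastoma, an aggressive brain tumour. They are 10 of the 30749 genes in the deposited table and were taken by name. They had been picked because an earlier look at these same libraries showed them lower in monocyte-derived macrophages (MDM, macrophages that enter the tumour from the blood) than in microglia (the resident macrophages of the brain), so that difference chose them and is described here without a test. Both kinds of cell had been sorted from tumours labelled type 1 or type 2, each grown in a spontaneous or a transplanted model. The 21 libraries analysed were 3 of microglia from each of the 4 tumour classes, with 2 of MDM from type 1 spontaneous, 4 from type 1 transplanted, 1 from type 2 spontaneous and 2 from type 2 transplanted tumours. The labels name neither strain, alleles, age nor sort gate, and 4 normal brain microglia samples were not analysed here.

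Microglia seed the brain in the embryo and renew themselves there, while blood monocytes enter mainly when the tissue is injured or holds a tumour. Signals of the brain, TGF-beta and CSF1 receptor ligands among them, keep a set of identity genes active in microglia through transcription factors such as Sall1 and PU.1 (Spi1). Proteins of that set, Tmem119 above all, are used to tell microglia from recruited macrophages in tissue.

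The genes code for different kinds of protein. Tmem119 is a single-pass membrane protein used as a microglia marker, Gpr34 is a receptor for lysophosphatidylserine, and Adgrg1 (GPR56) is an adhesion receptor that binds matrix. Olfml3 is a secreted olfactomedin-like protein. Slc2a5 transports fructose and Slc1a3 takes up glutamate, the latter being best known from astrocytes. Bin1 bends membranes in endocytosis, and Mlph (melanophilin) links Rab27a vesicles to a myosin motor. Naalad2 is a peptidase of the glutamate carboxypeptidase family, and Csmd3 is a very large transmembrane protein with CUB and sushi domains.

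Promoter windows from RefSeq (GRCm38.p6), the 250 bases before an annotated start in the direction of the gene, were used for Olfml3, Slc1a3, Mlph, Slc2a5, Adgrg1 and Naalad2. None was used for the other members. The first 3 are printed, since their transcripts differed together between models in MDM as given further on. They lie at chr3:103738002-103738251 on the minus strand (Olfml3), chr15:8710808-8711057 on the minus strand (Slc1a3) and chr1:90914850-90915099 on the plus strand (Mlph), and capitals mark each GC box, GGGCGG on either strand. The Mlph window ends past the start of the gene in RefSeq (90915024) and in GENCODE (90915085), so its last bases lie within the gene. The GC box of Mlph lies past that RefSeq start.
Olfml3: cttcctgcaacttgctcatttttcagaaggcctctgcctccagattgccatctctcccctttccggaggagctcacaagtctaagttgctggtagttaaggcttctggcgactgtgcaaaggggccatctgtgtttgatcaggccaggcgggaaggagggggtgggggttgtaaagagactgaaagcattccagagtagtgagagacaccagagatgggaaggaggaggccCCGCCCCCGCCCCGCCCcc
Slc1a3: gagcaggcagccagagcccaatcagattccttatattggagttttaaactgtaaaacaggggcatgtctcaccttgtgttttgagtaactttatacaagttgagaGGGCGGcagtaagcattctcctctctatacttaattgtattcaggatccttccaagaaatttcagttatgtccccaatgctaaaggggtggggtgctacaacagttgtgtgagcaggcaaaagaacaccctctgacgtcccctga
Mlph: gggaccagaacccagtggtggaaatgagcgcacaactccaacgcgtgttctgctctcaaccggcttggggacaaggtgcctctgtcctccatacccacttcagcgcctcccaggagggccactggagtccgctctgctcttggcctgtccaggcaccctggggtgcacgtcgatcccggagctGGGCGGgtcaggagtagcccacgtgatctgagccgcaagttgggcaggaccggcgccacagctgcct
The windows differ in make-up, with 57.6% G and C in Olfml3, 44.8% in Slc1a3 and 64.8% in Mlph against a median of 52.4% over all 32851 windows. A GC box was found in all 3 and in 32.7% of all windows. The Slc2a5 window also held it, while those of Adgrg1 and Naalad2 did not. This motif was searched only after the sequences had been seen. The PU.1 core GAGGAA, held by 23.3% of all windows, was absent from the 8 windows of the 6 genes on both strands. Likewise absent there were the PU.1 and IRF composite, GGAA and GAAA with any 2 bases between them (2.30% of all windows), and the loose MEF2 pattern, CTA and TAG with any 4 bases between them (3.20%). These are matches of letters and say nothing of binding.

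In GENCODE M21 on GRCm38, Tmem119 lies on chromosome 5 (113793729 to 113800516), Gpr34 on X (13632089 to 13640858), Olfml3 on 3 (103722222 to 103738001) and Slc2a5 on 4 (150119283 to 150144169). Bin1 lies on chromosome 18 (32377230 to 32435737), Adgrg1 on 8 (94974751 to 95014217), Mlph on 1 (90915085 to 90951142) and Naalad2 on 9 (18321951 to 18402995). Slc1a3 (8634124 to 8710764) and Csmd3 (47580637 to 48792063) share chromosome 15 at a distance. Exons of Bin1 overlap A830052D11Rik on the opposite strand and those of Naalad2 overlap the pseudogene Gm19174. The strand of the reads is not given in the sources used here, so reads of such overlaps cannot be told apart.

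The 21 libraries held 26530069 to 50365607 reads and 16297 to 21435 detected genes each. All 10 genes passed the filter on low values, at least 10 normalised counts in at least 3 libraries. The make-up of some libraries touches the results below. The summed level of 16 T and NK cell genes was 276357 to 332589 normalised counts in the 4 MDM libraries of type 1 transplanted tumours and 317439 in type 2 transplanted MDM replicate 1, but 13277 to 44245 in the other 4 MDM libraries and 114 to 6784 in microglia. Among microglia, type 1 spontaneous replicate 2 stood apart in a list of 20 MDM genes, whose mean log2 level was 11.33 there and 6.33 to 9.17 in the other 11.

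Levels are normalised counts, which correct for depth but not for gene length. Per kilobase of the longest coding transcript, Tmem119 was by far the most abundant in microglia, at 79258 ± 17853 (SD, n = 12) normalised counts per kilobase. It was followed by Gpr34 (21074 ± 7471), Olfml3 (15985 ± 5159), Bin1 (11400), Adgrg1 (5296), Slc2a5 (4341), Slc1a3 (1486), Mlph (758), Naalad2 (242) and Csmd3 (43.2). Each gene exceeded the next in this order in all 12 libraries, save that Gpr34 exceeded Olfml3 and Olfml3 exceeded Bin1 in 10, Adgrg1 exceeded Slc2a5 in 9 and Slc2a5 exceeded Slc1a3 in 11. These 4 neighbouring pairs thus did not separate beyond their spread, while the other 5 did in every library. The place of Olfml3 rests on a GENCODE model of 5.465 kb that is longer than the RefSeq gene. Over the 9 MDM libraries the mean order began with Tmem119, Bin1, Olfml3 and Gpr34 and then followed that of microglia.

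Tmem119 stood at 108973 to 245104 normalised counts in the 12 microglia libraries, with a median of 177775. In MDM it was 33666 and 13814 in type 1 spontaneous, 1905, 2174, 995 and 852 in type 1 transplanted, 24782 in type 2 spontaneous and 3706 and 17199 in type 2 transplanted libraries. No MDM library reached the lowest microglia library, which was 3.24 times the highest MDM one. Of the receptors, Gpr34 overlapped between the cells and Adgrg1 did not. Gpr34 was 6555 to 72279 in microglia (median 44465) and, in the same order of MDM libraries, 3414 and 948, then 751, 618, 415 and 508, then 2022, and then 823 and 11670. Only type 2 transplanted MDM replicate 3 rose above the lowest microglia library, type 1 spontaneous replicate 2. The adhesion receptor gene Adgrg1 was 7728 to 39260 in microglia (median 15920) and 2180 and 615, 658, 339, 1114 and 227, 543, and 131 and 2340 in MDM.

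The secreted Olfml3 was 44725 to 130416 in microglia, with a median of 89130. Its MDM values were 8870 and 5354 in type 1 spontaneous, 2304, 968, 603 and 391 in type 1 transplanted, 11054 in type 2 spontaneous and 3881 and 26957 in type 2 transplanted libraries. All 9 lay below microglia.

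Of the transporters, Slc2a5 varied most, from 1711 to 28623 in microglia (median 13177). It was 812 and 97.6 in type 1 spontaneous, 143, 50.6, 4.52 and 13.8 in type 1 transplanted, 199 in type 2 spontaneous and 113 and 2044 in type 2 transplanted MDM. The last of these lay above the lowest microglia library and the other 8 below it. Slc1a3 was 4037 to 11285 in microglia (median 5480) and 780 and 686, 74.4, 73.3, 75.5 and 44.3, 178, and 187 and 1322 in MDM, with no overlap. Slc1a3 is also an astrocyte gene, and the 16 other astrocyte and neural stem cell genes together reached 484 to 2212 normalised counts in microglia and 656 to 2265 in MDM.

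Bin1 behaved unlike the rest, with a narrow range and a high level in both cells. It was 20696 to 32731 in microglia (median 27646) and 9308 and 7706, 7033, 7916, 7162 and 6300, 5912, and 6046 and 7872 in MDM. The groups did not overlap, and the 9 MDM libraries lay within a narrow band. Mlph was 1198 to 7441 in microglia (median 2961). In MDM it was 327 and 251 in type 1 spontaneous, 17.6, 24.4, 5.81 and 0 in type 1 transplanted, 13.9 in type 2 spontaneous and 82.2 and 624 in type 2 transplanted libraries, all below microglia.

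The least abundant genes reached zero in MDM. Naalad2 was 522 to 1847 in microglia (median 848) and 112 and 0, 1.60, 1.75, 0 and 2.18, 8.58, and 1.19 and 367 in MDM, where 6 of 9 libraries held 3 reads or fewer. Csmd3 was 20.6 to 1163 in microglia (median 589) and 24.4 and 0, 25.6, 0.873, 0 and 0, 12.9, and 0 and 202 in MDM. Naalad2 did not overlap between cell types, while for Csmd3 3 MDM libraries lay above the lowest microglia library, type 1 spontaneous replicate 2.

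**Figure D1:**
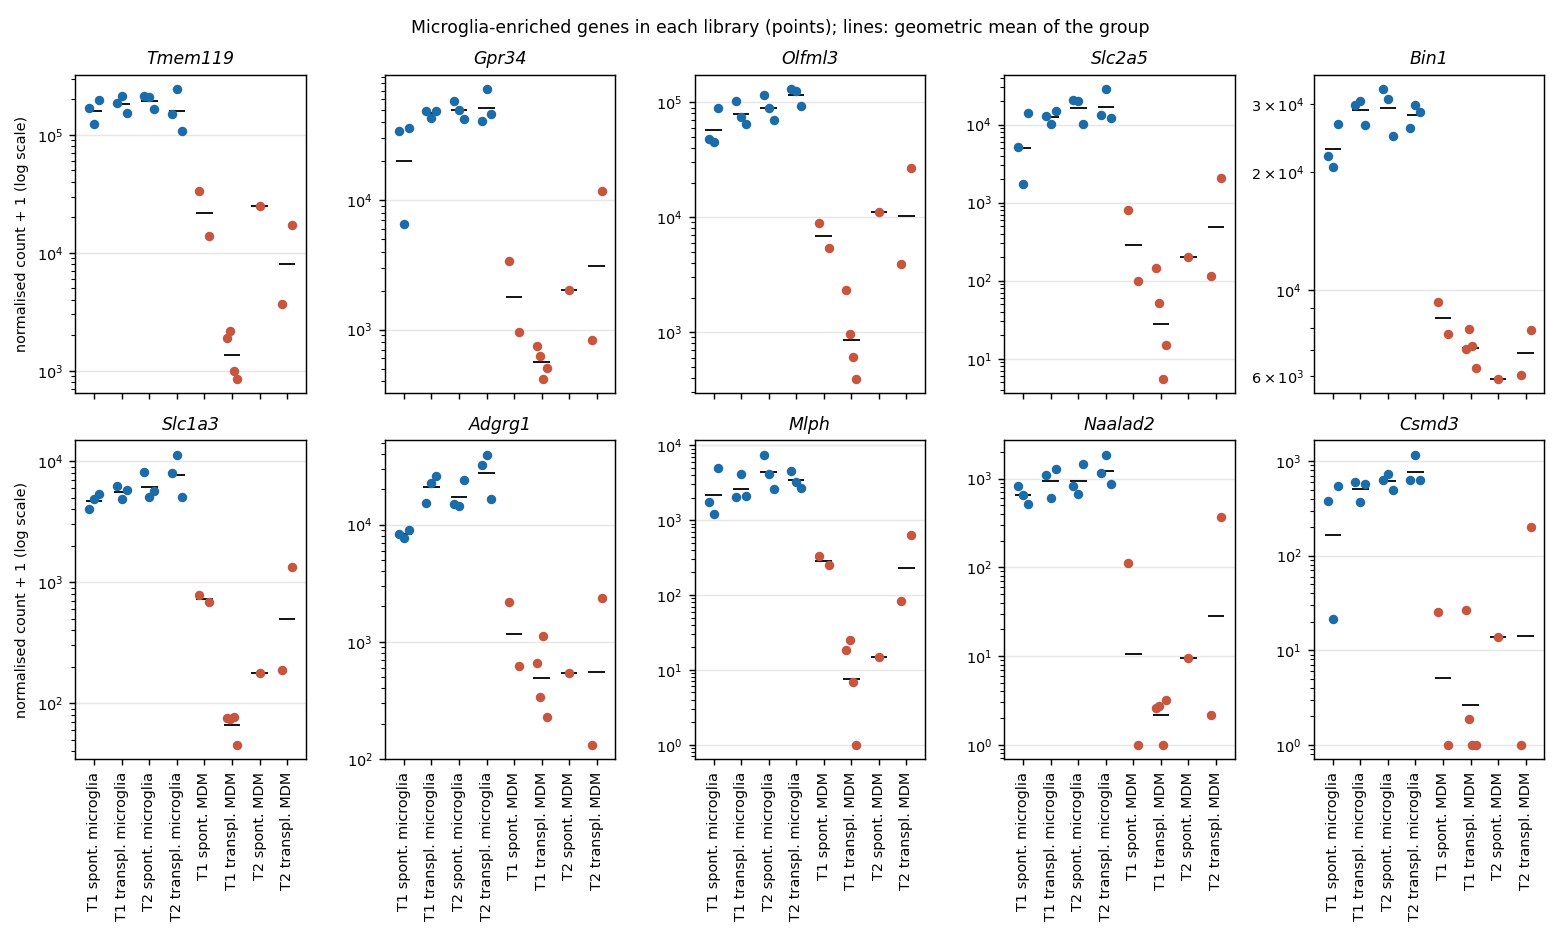
Normalised count plus 1 on a log axis (y) of each of the 10 genes in each of the 8 groups (x). Each point is a library, lines are group geometric means, blue is microglia and red MDM. The 9 MDM libraries lie below all 12 microglia libraries for 7 of the 10 genes, the exceptions being Gpr34, Slc2a5 and Csmd3.

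Over all libraries, the microglia mean was 16.1 times the MDM mean for Tmem119, 18.7 for Gpr34, 13.02 for Olfml3, 35.5 for Slc2a5, 16.3 for Slc1a3, 21.2 for Adgrg1, 22.8 for Mlph, 17.9 for Naalad2 and 19.1 for Csmd3. Bin1 was the exception at 3.78 times. The MDM means lean on type 2 transplanted replicate 3: without it the ratio was 37.1 for Gpr34, 20.9 for Olfml3, 76.5 for Slc2a5, 37.8 for Mlph, 62.1 for Naalad2 and 70.6 for Csmd3, while it moved by less than 1.5 times for the other 4. For 7 of the 10 genes no MDM library reached any microglia library, where 3.06% of all tested genes showed this. All 10 were called lower in MDM at an adjusted p under 0.05, as were 19.8% of all tested genes. The genes had been chosen on this contrast, so neither count is a test of them and nothing is read from either. In bulk RNA of sorted cells, fewer cells of a type and less RNA per cell cannot be told apart.

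The residual level in each MDM library was expressed as a percent of the mean of the 12 microglia libraries. The median over the 10 genes was 10.7% and 4.67% in type 1 spontaneous MDM, 1.45%, 1.15%, 0.62% and 0.464% in type 1 transplanted MDM, 2.86% in type 2 spontaneous MDM, and 1.98% and 23.9% in type 2 transplanted MDM. The 4 type 1 transplanted libraries were the lowest and type 2 transplanted replicate 3 the highest. In that highest library the genes ran from 9.68% for Tmem119 to 37.3% for Naalad2. The median of 30 other homeostatic microglia genes was 23.0% and 13.4%, 4.33%, 2.66%, 1.76% and 2.45%, 22.7%, and 7.10% and 27.4% in the same libraries.

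The genes did not keep a common ratio across MDM libraries. Bin1 stayed at 21.6% to 33.9% in all 9 and was the highest of the 10 genes in 8 of them. Among the other 9 genes, the number under 1% of microglia was 7 in type 1 transplanted replicates 3 and 4, 2 and 4 in its replicates 1 and 2, 3 in type 1 spontaneous replicate 2, 2 in type 2 spontaneous, 4 in type 2 transplanted replicate 1, and 0 in type 1 spontaneous replicate 1 and type 2 transplanted replicate 3. In type 2 spontaneous MDM, Tmem119 (13.9%) and Olfml3 (12.7%) were retained while Mlph was at 0.409%. The percent of Tmem119 was thus 34.1 times that of Mlph, an imprecise ratio since Mlph had few reads there. In type 2 transplanted replicate 3 the same ratio was 0.529, with Mlph at 18.3%. A single MDM library stands for type 2 spontaneous tumours, so its pattern has no replicate check.

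**Figure D2:**
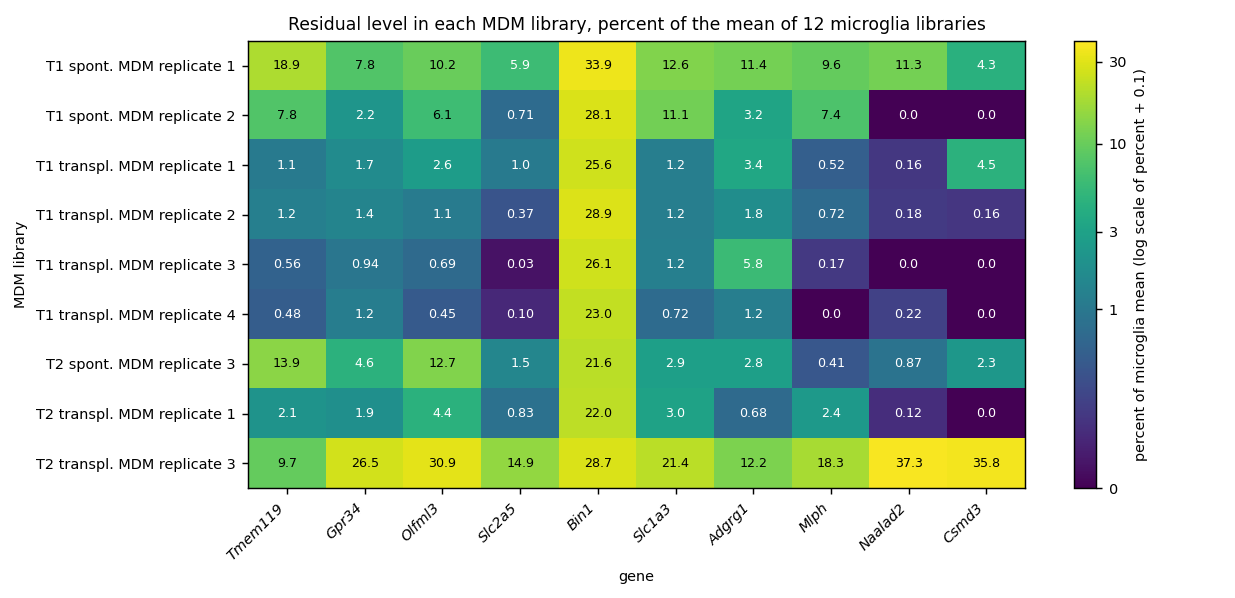
Level of each of the 10 genes (columns) in each of the 9 MDM libraries (rows) as a percent of the mean of the 12 microglia libraries, shown by colour and number. Type 1 transplanted libraries are the darkest, with medians of 0.464% to 1.45%, and Bin1 stays between 21.6% and 33.9% in every row.

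Whether MDM of transplanted tumours differed by tumour type was tested on 2 type 2 and 4 type 1 libraries with limma-trend and Benjamini-Hochberg adjustment over 17216 genes. Separate animals for the libraries of a group are not stated in the labels. The p-values therefore measure only the spread between libraries of a group, as shared over all 8 groups of the fit. Fold changes are log2 of normalised count plus 1, with the standard error of the fit. Of the 10 genes 5 rose in type 2, against 5.91% of all genes called in either direction and 2.96% called higher. The median log2 fold change of the 10 was 2.73, against -0.03 over all genes tested.

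Tmem119, at 3706 and 17199 in type 2 against 852 to 2174 in type 1, rose by 2.54 ± 0.53 (adjusted p = 0.0091). Olfml3 rose by 3.58 ± 0.63 (adjusted p = 0.0036) and Slc1a3 by 2.91 ± 0.51 (adjusted p = 0.0032). Both were higher in either type 2 library than in all 4 type 1 libraries, as were 17% of all tested genes. Mlph rose by 4.92 ± 0.98 (adjusted p = 0.0071). Slc2a5 rose by 4.11 ± 1.17 (adjusted p = 0.044), although its lower type 2 value, 113, lay under the highest type 1 value, 143.

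The other 5 genes did not pass the test. Gpr34 differed by 2.47 ± 0.77 (adjusted p = 0.066), with 823 and 11670 in type 2 above 415 to 751 in type 1. Adgrg1 differed by 0.19 ± 0.80 (adjusted p = 0.93) and Bin1 by -0.04 ± 0.21 (adjusted p = 0.95). Naalad2 (adjusted p = 0.17) and Csmd3 (adjusted p = 0.47) were at 3 reads or fewer in 5 and 4 of these 6 libraries, so no fold is given.

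These calls rest on replicate 3 of type 2 and on the spread shared over all 8 groups. With the filter and fit on only the compared groups, Naalad2 and Csmd3 fell under the filter on low values and were not tested. Of the other members 0 were called, with the same fold changes, a median of 2.73, 7 positive and 1 negative. The adjusted p there was 0.068 for Tmem119, 0.065 for Olfml3, 0.069 for Slc1a3, 0.091 for Mlph and 0.14 for Slc2a5. With each library scaled to Itgam, Csf1r and Tyrobp 3 were called, Tmem119 (1.45, adjusted p = 0.093) and Slc2a5 (3.02, adjusted p = 0.052) being lost, and the median was 1.64. Without replicate 3 the count was 0 of 10, with a median of 1.00, Tmem119 at 1.44 (adjusted p = 0.35) and Olfml3 at 2.19 (adjusted p = 0.18). Without replicate 1 it was 9 of 10, with a median of 4.68. T and NK cell transcripts moved with this split, replicate 1 at 317439 standing among the type 1 libraries and replicate 3 at 33414 far below, and the part of those transcripts in the result was not tested. All 16 of these genes had reads in all 9 MDM libraries.

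Model was compared in type 1 MDM, 4 transplanted libraries against 2 spontaneous ones. The 4 type 1 transplanted libraries are the same as in the tumour type comparison, so both sets of values share them. Of the 10 genes 4 fell in the transplanted model, Tmem119, Olfml3, Slc1a3 and Mlph, against 13.7% of all genes called in either direction and 7.96% called lower. The median of the 10 was -2.65, against 0.03 over all genes, and all 10 fold changes were negative. Naalad2 and Csmd3, near zero in most of these 6 libraries, passed the filter on low values only with libraries outside this comparison. With the filter and fit on only the compared groups they were not tested, and the median was -3.18 with 8 negative. Without type 1 spontaneous replicate 1 the median was -1.29 with 8 negative, and with each library scaled to Itgam, Csf1r and Tyrobp, as described further on, it was -1.13 with 7 negative.

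Tmem119 stood at 33666 and 13814 in the spontaneous and 852 to 2174 in the transplanted libraries (-3.98 ± 0.53, adjusted p = 0.00014). Olfml3 stood at 8870 and 5354 against 391 to 2304 (-3.01 ± 0.63, adjusted p = 0.0039). The glutamate transporter Slc1a3 stood at 780 and 686 against 44.3 to 75.5 (-3.46 ± 0.51, adjusted p = 0.00029). Mlph stood at 327 and 251 against 0 to 24.4 (-5.25 ± 0.98, adjusted p = 0.0016). The groups did not overlap for these genes, and for 19.3% of all tested genes every transplanted library was the lower. Leaving out any 1 of the 6 libraries, all 4 kept their calls.

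Slc2a5 (-3.34 ± 1.17, adjusted p = 0.066), Gpr34 (-1.68 ± 0.77, adjusted p = 0.17), Adgrg1 (-1.25 ± 0.80, adjusted p = 0.35) and Bin1 (-0.26 ± 0.21, adjusted p = 0.49) did not pass, nor did Naalad2 (adjusted p = 0.38) and Csmd3 (adjusted p = 0.79). Bin1 turned with the scaling: with each library scaled to Itgam, Csf1r and Tyrobp, an alternative added after the data were seen, it was higher in transplanted MDM by 1.26 (adjusted p = 0.022), where the median of all genes had itself moved by 1.52. In that scaling Adgrg1 (0.27, adjusted p = 0.76) and Csmd3 also turned positive.

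**Figure D3:**
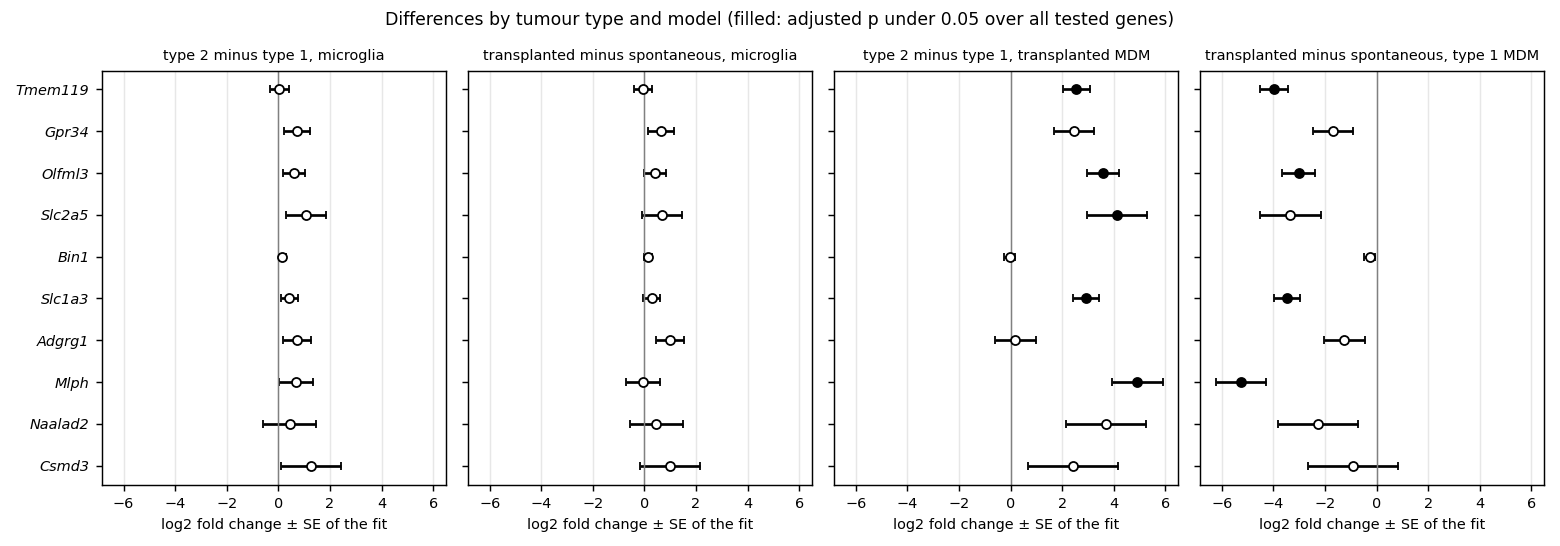
Log2 fold change with its standard error (x) of the 10 genes (y) in 4 comparisons, with filled points for an adjusted p under 0.05. In transplanted MDM 5 genes are filled to the right of 0 for type 2, in type 1 MDM 4 are filled to the left for the transplanted model, and no gene is filled in either comparison of microglia.

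Markers of other cells moved with the model comparison. Among the 16 T and NK cell genes, 10 rose in the transplanted libraries (median 4.22), Klrb1c, Gzma, Cd3d and Cd2 having the smallest p, and so were 8 of 9 B cell genes, whose sum was 22652 to 56430 there and 2377 and 3935 in the spontaneous libraries. The B cell genes Pax5 and Blk had no reads in type 1 spontaneous replicate 2. Astrocyte and neural stem cell genes, relevant to Slc1a3, went the other way, with 2 of 15 tested lower, Gfap (-2.60 ± 0.74, adjusted p = 0.026) and Nes (-2.52 ± 0.73, adjusted p = 0.027), and a median of -1.82. Their sum was 2265 and 1254 in the spontaneous and 656 to 1230 in the transplanted libraries, and Gfap was 472 and 345 against 28.8 to 112. Of 12 genes of oligodendrocytes and their progenitors 1 was lower, Cspg4 (-6.95 ± 1.16, adjusted p = 0.00072). The myeloid integrin Itgam was lower in the transplanted libraries, 3253 to 8231 against 21008 and 23634 (-2.16 ± 0.52, adjusted p = 0.01), and Csf1r by -1.60 ± 0.49 (adjusted p = 0.038). Tyrobp (-0.81, adjusted p = 0.25) and Ptprc (0.85, adjusted p = 0.084) did not pass. The part of these cells in the result was not tested. Of the members, Tmem119 (-2.45), Slc1a3 (-1.94) and Mlph (-3.73) were also called with each library scaled to Itgam, Csf1r and Tyrobp, and Olfml3 was not (-1.49, adjusted p = 0.07).

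Macrophages at the borders of the brain, which express Mrc1 and Siglec1, form a further possible source, and their part was not tested. Of 10 genes listed for them, 5 rose in type 2 transplanted MDM (median 2.83) and 5 fell in transplanted type 1 MDM (median -2.85). Their sum was 1066 to 1696 in type 1 transplanted MDM and 10120 to 24050 in the other 5 MDM libraries, and Lyve1 was without reads in 3 of the type 1 transplanted libraries and in type 2 spontaneous and type 2 transplanted replicate 3 MDM. Siglec1 fell by 5.32 ± 0.74 (adjusted p = 0.00019) with model. The 20 listed MDM genes gave 1 higher and 0 lower by tumour type and 0 higher and 4 lower by model. F13a1 is in both this list and that of the border macrophages.

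Other microglial genes are given for context. The 30 other homeostatic genes had 20 members higher in type 2 transplanted MDM and 0 lower (median 2.17), among them Trem2, Gas6 and Crybb1. That count was 0 without replicate 3 of type 2. By model in type 1 MDM 23 were lower and 0 higher (median -2.80). The fractalkine receptor Cx3cr1 fell by 2.95 ± 0.37 (adjusted p = 1e-04), the ADP receptor P2ry13 by 3.63 ± 0.56 (adjusted p = 4e-04) and the phagocytic receptor Mertk by 3.52 ± 0.54 (adjusted p = 0.00041). Leaving out single libraries gave 17 to 21, and scaling to Itgam, Csf1r and Tyrobp gave 10.

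Of 18 transcription factors of microglia, 4 were higher and 1 lower by tumour type in transplanted MDM, and 1 was higher and 9 lower by model in type 1 MDM. Sall1 rose by 4.12 ± 0.85 with type 2 (adjusted p = 0.0087) and fell by 4.73 ± 0.85 with transplantation (adjusted p = 0.0012). Of 16 tested genes of TGF-beta and CSF1 receptor signalling, 0 were higher and 2 lower by tumour type, and 2 were higher and 3 lower by model. The lists share called genes, so their counts are not independent. Sall1 is both a listed homeostatic gene and a listed transcription factor. Csf1r is in the homeostatic and signalling lists, and Smad3 in the transcription factor and signalling lists. Csf1, a ligand of the CSF1 receptor, fell with transplantation by 2.84 ± 0.56 (adjusted p = 0.0024), and Nrros, a partner of latent TGF-beta, by 1.34 ± 0.34 (adjusted p = 0.013). Lrrc32, a presenter of TGF-beta on regulatory T cells, went the other way, at -6.95 by tumour type (adjusted p = 0.0093) and 4.58 by model (adjusted p = 0.042).

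Whether the difference between models in type 1 tumours was itself unlike in the 2 cell types was tested as an interaction. The change with transplantation was lower in MDM than in microglia for 4 of the 10 genes, against 4.51% of all genes called and 3.12% called lower. The difference of changes was -4.16 ± 0.72 for Tmem119 (adjusted p = 0.0048), -3.48 ± 0.87 for Olfml3 (adjusted p = 0.03), -3.70 ± 0.70 for Slc1a3 (adjusted p = 0.0071) and -5.52 ± 1.34 for Mlph (adjusted p = 0.025). In type 1 microglia their means were not lower in the transplanted model, at 163123 in spontaneous and 183968 in transplanted libraries for Tmem119, 60637 and 80831 for Olfml3, 4759 and 5604 for Slc1a3 and 2650 and 2771 for Mlph. The count was 2 without either type 1 spontaneous MDM library and without type 1 spontaneous microglia replicate 1 or type 1 transplanted microglia replicate 2. It was also 2 with no filter, and 2 when scaled to Itgam, Csf1r and Tyrobp. The same interaction with tumour type in transplanted tumours called 0 of the 10 genes with limma-trend (0.749% of all genes; 2698 genes at an unadjusted p under 0.05), with a median of 2.59. That median was 0.73 without type 2 transplanted MDM replicate 3, 4.35 without replicate 1 and 1.57 when scaled to Itgam, Csf1r and Tyrobp. Its smallest adjusted p was 0.079, for Tmem119 (2.74 ± 0.72), which was called with libraries of 1 tumour as a correlated replicate block (2.76, adjusted p = 0.047). The count there was 7 without type 2 transplanted MDM replicate 1, 1 without type 1 transplanted MDM replicate 1, and 0 with voom.

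Within microglia none of the 10 genes passed the test for tumour type or model. By tumour type 0 of 10 were called (limma-trend, 0.47% of all genes, 1530 genes at an unadjusted p under 0.05), and 0 also with voom on the recovered reads. Each of the 10 had a positive fold change in type 2, 9 when scaled to Itgam, Csf1r and Tyrobp, from 0.04 for Tmem119 to 1.26 for Csmd3 (median 0.64, against -0.02 for all genes). The largest after Csmd3 was Slc2a5 at 1.06 ± 0.78 (adjusted p = 0.72). Without type 1 spontaneous replicate 2 the median by tumour type was 0.45, with 9 positive. By model 0 of 10 were called (1.84% of all genes, 3339 at an unadjusted p under 0.05), and 0 with voom, with a median of 0.43 against 0.04 for all genes. That median was 0.27 without type 1 spontaneous replicate 2 and 0.16 when scaled to Itgam, Csf1r and Tyrobp. Adgrg1 came nearest, at 1.00 ± 0.53 (adjusted p = 0.31), its 3 lowest libraries being the type 1 spontaneous ones at 8313, 7728 and 8984. The interaction of tumour type with model also called 0 (0.0116% of all genes, 1088 at an unadjusted p under 0.05, 0 with voom). T and NK cell genes moved with model in microglia too, 8 of 16 being higher in the transplanted model, with sums of at most 6784. By tumour type, 4 of 15 astrocyte and neural stem cell genes were lower in type 2 microglia and 0 higher, among them Sox2 (-5.77). So were 3 of 12 genes of oligodendrocytes and their progenitors, among them Olig2 (-4.14), with 0 higher. Slc1a3 went the other way, at 0.42 ± 0.34 (adjusted p = 0.74). The part of these cells was not tested. A p that misses the threshold does not show that the levels were alike.

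**Figure D4:**
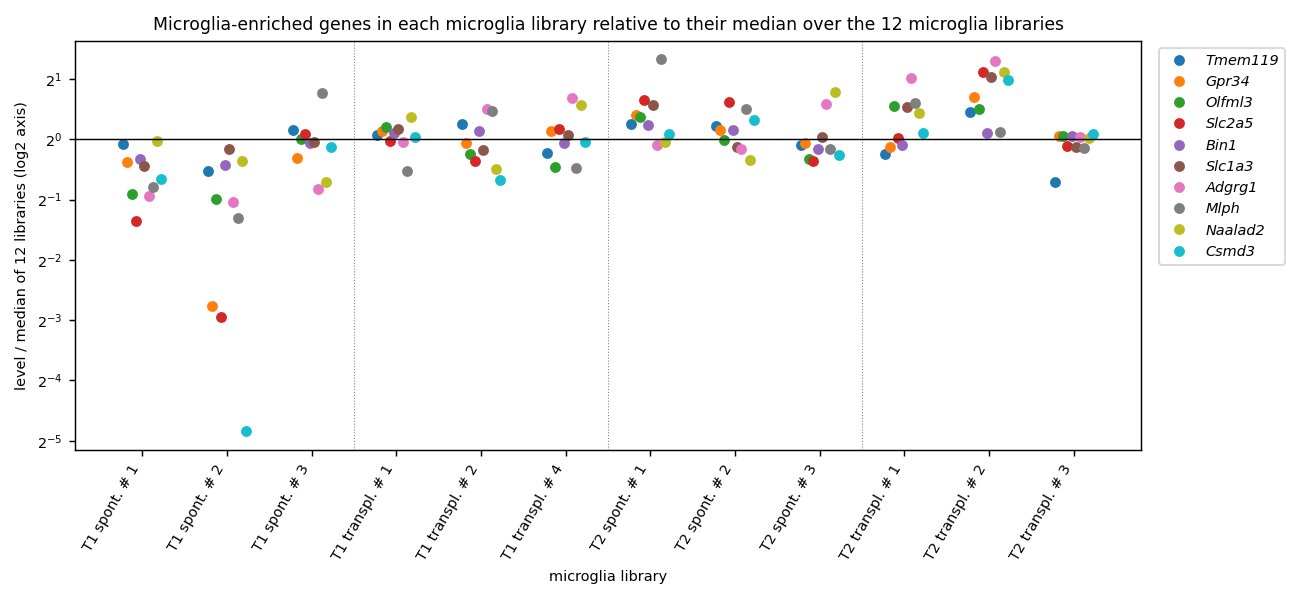
Ratio of each of the 10 genes to its median over the 12 microglia libraries (y, log2 axis) in each library (x). Type 1 spontaneous replicate 2 lies lowest for 7 genes, down to 0.0349 for Csmd3, and type 2 transplanted replicate 2 lies highest for 7.

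Single microglia libraries stood apart. Type 1 spontaneous microglia replicate 2 was the lowest of the 12 for 7 of the 10 genes, with a median ratio of 0.494 to the microglia median and 0.0349 for Csmd3. P2ry12, an ADP receptor of resting microglia, was lowest there too, at 12893 normalised counts. This is the library with the high MDM list, whose part in the low values was not tested. Type 2 transplanted replicate 2 was the highest for 7 genes, with a median ratio of 1.80, from 1.08 for Bin1 to 2.47 for Adgrg1. Over the 12 microglia libraries, 44 of the 45 pairs of genes had a positive Pearson correlation of log2 levels, with a median r of 0.59. The highest was 0.98 for Csmd3 with Gpr34 and the lowest -0.16 for Naalad2 with Mlph. Without replicate 2 of type 1 spontaneous, over 11 libraries, the median was 0.49 with 42 pairs positive, the highest 0.87 for Csmd3 with Slc2a5 and the lowest -0.40 for Naalad2 with Mlph. The libraries share their scaling, and some their tumour class.

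Among the genes most like Tmem119 over all 21 libraries by Pearson correlation of log2 levels were Slc46a1 (0.992), Lrrc3 (0.991), Ctsf (0.990) and Ptgs1 (0.989), of 11213 genes with a mean of at least 50. Among the other 9 genes, Olfml3 came closest at 0.973, which was rank 41, and Csmd3 was the farthest at 0.877, rank 588. These values mostly follow the split between cell types. Over the 12 microglia libraries alone the nearest were Gna15 (0.920), Rnf167 (0.908), Selplg (0.899), Spns3 (0.899) and Mapk1ip1 (0.898). There the other 9 genes ran from 0.07 for Naalad2 to 0.59 for Slc2a5.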

How the data were processed

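RNA of sorted MDM and microglia was sequenced. Per the labels' protocols, it was extracted with TRIzol and miRNeasy Micro kits and amplified with SMART-Seq v4. Per the submitters' processing notes, the tools were STAR 2.7.8a and DESeq2 on mm10. The authors deposited log2-like values, 4.22 where a gene has no reads, in the form of a variance-stabilising transformation, although the design had assumed normalised counts. Inverting it gave whole reads for 100% of values (within 1e-04) and size factors of 0.62 to 1.55. From these, log2(normalised count + 1) was fitted with limma-trend, 1 mean for each of 8 groups, over the 17216 genes that reached 10 in 3 or more libraries. A call is an adjusted p (Benjamini-Hochberg) under 0.05. The members and lists were chosen with earlier results of these data known. Named are all 10 members, the called members of a described list (at most 4 with the smallest p), the 5 genes most like Tmem119, and markers of other cells that moved with a result. Some genes that this rule names are not reported here. Alternatives were other pseudocounts, filters, scalings, weights, blocks and groups fitted, voom on the recovered reads, and each library left out. The method was tested on simulated data. The fit used limma 3.58.1 in R 4.3.3, and the rest numpy 2.4.6 and pandas 2.3.3 in python 3.11.15, with matplotlib 3.10.9 for plots and scipy 1.17.1.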

Additional observations from a re-analysis of the deposited data

Results flagged for a closer look

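In 50 groupings of 4 or 6 libraries, 7 held a library far from the others, where chance gives about 1 in 20 for a single grouping. The groupings overlap, so the same library could be flagged more than once for a gene, and the 7 are not independent. Gpr34 at 6555 and Csmd3 at 20.6 normalised counts in type 1 spontaneous microglia replicate 2 lay far below the other type 1 microglia and the other spontaneous microglia. Gpr34 at 72279 and Slc2a5 at 28623 in type 2 transplanted microglia replicate 2 lay far above the other transplanted microglia. Slc1a3 at 44.3 in replicate 4 of type 1 transplanted MDM lay below the other 3. The difference between models in type 1 tumours was unlike in MDM and microglia by a limma interaction test for Tmem119 (-4.16), Olfml3 (-3.48), Slc1a3 (-3.70) and Mlph (-5.52), on the log2 scale.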

How the results depend on the processing

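Of 70 results, 10 genes in 7 comparisons, 13 were called. Over 1586 alternatives 1 result reversed past the threshold, Bin1 by model in type 1 MDM at 1.26 when scaled to Itgam, Csf1r and Tyrobp, 37 lost a call and 17 gained one. For tumour type in transplanted MDM, where 5 of 10 were called, the count was 0 with only the groups compared in the fit and 3 with that scaling, and leaving out single libraries gave 0 to 9. For the interaction of cell type with tumour type (0 called) leaving out single libraries gave 0 to 7. For that with model (4 called) it gave 2 to 4, and no filter and that scaling each gave 2. By model in type 1 MDM it gave 4 to 5, and in microglia 0. Slc2a5 by tumour type kept its call in 6 of 18 alternatives, Tmem119 in 15. The MDM mean as a percent of the microglia mean had a median of 5.46% over the 10 genes. It ranged from 1.97% with medians over libraries to 6.30% with the 4 MDM groups weighted equally. Without type 2 transplanted MDM replicate 3 it was 3.24%. Correlations between MDM and microglia of the same tumour number were 0.035 to 0.24 over 7 pairs, highest in type 1 spontaneous tumours at 0.24 and 0.23. Microglia of different tumour classes with the same number gave -0.22 to 0.082. The main fit did not pair the libraries, and these values do not exclude a pairing. With a replicate block as a term 4 members were called by tumour type in transplanted MDM, 4 by model in type 1 MDM and 4 for cell type by model. With libraries of 1 tumour as correlated in the block these were 5, 4 and 4, and cell type by tumour type gave 1. Over all genes, calls ran from 79 to 3897 by tumour type in transplanted MDM (1018), 948 to 8576 by model in type 1 MDM (2366), 12 to 990 and 369 to 6090 for the interactions with cell type (129 and 777), 2 in the interaction within microglia against 0 to 182, and 0 to 303 and 46 to 2310 by tumour type and model in microglia (81 and 317). Rescaling to the same total moved the share of calls that were higher from 50% to 29.5% by tumour type in transplanted MDM and from 42.1% to 75.5% by model in type 1 MDM, and scaling to Itgam, Csf1r and Tyrobp moved them to 2.87% and 96.7%. Leaving out the 8 libraries rich in transcripts of other cells could be fitted only for microglia, with 0 called. A left-out library leaves some MDM arms with 1, assumed to vary like the others. The causes were not tested.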
